A study of Mus musculus with 18 samples.

Results

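The 10 immediate early transcription factor genes Fos, Fosb, Fosl2, Jun, Junb, Jund, Egr1, Myc, Atf3 and Klf6 were followed through the differential N6-methyladenosine (m6A) peaks of the mouse uterus on day 5 of pregnancy. A peak was given to a gene when its annotation named a transcript of that gene, or when it was assigned to the gene and its centre lay within the gene. By this rule, 9 of the 10 genes held a peak in at least 1 of 4 tables, beside 9260 of 21887 protein-coding genes. The 9 genes held 19 of the 28573 peaks that lay in a gene, at 15 distinct sites, and Jund held none. All mice were wild-type (WT) ICR females of 8 weeks. Mice of the Veh group received the saline vehicle by intraperitoneal injection from D1 to D4. Those of the LPS group received the same daily injections and, on D3 and D4, bacterial lipopolysaccharide (LPS) at 0.5 mg/kg. The Mel+LPS group received melatonin at 10 mg/kg from D1 to D4 and the same LPS. Each of the 3 treatments had 3 replicates, sequenced both as input and after immunoprecipitation with an m6A antibody, which gave 18 libraries. Whether a replicate was 1 mouse or pooled mice is not given in the sources used here.

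Each deposited peak has a position in GRCm38 and a score, read here from the form of the peak names and the values as the log10 likelihood ratio of MACS2, a measure of the evidence in the reads for a difference between the 2 treatments over none. It is not a fold change, and there is 1 score per peak and comparison. The tables used give no value per replicate, so no error or test is given for any score here, and the read depth is unknown. They also hold no transcript level. A change in methylation and a change in the amount of the transcript therefore cannot be told apart, and neither can fewer cells of a type and less RNA per cell in this whole tissue. Peaks higher in LPS than in Veh (LPS up), higher in Mel+LPS than in LPS (Mel+LPS up) and lower in Mel+LPS than in LPS (Mel+LPS down) were used on all chromosomes. Peaks lower in LPS than in Veh (LPS down) were used on chromosomes 1 to 9. These hold Fosb, Fosl2, Jun, Junb, Jund and Atf3, so LPS-down peaks of Fos, Egr1, Myc and Klf6 were not analysed here. Of 9 uterine marker genes, 7 held a peak in some table, among them the hormone receptor genes Pgr and Esr1. Hoxa10 and Hoxa11 held none. Of the 21887 protein-coding genes of RefSeq, 9260 held one. A listed peak gives no expression level, so this is not a check of the tissue.

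Immediate early genes are transcribed within minutes of a stimulus from factors already present in the cell, mainly serum response factor with its ETS partners, CREB and, after bacterial products, NF-κB. Mitogen-activated protein kinases switch these factors on. FOS proteins pair with JUN proteins to form AP-1, which binds and activates or restrains many inflammatory and growth genes. The transcripts are unstable, and m6A is one of the marks known to speed mRNA decay through reader proteins. In the pregnant uterus, AP-1 and EGR1 are known for their part in the responses to estrogen and to the implanting embryo.

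The sequences below are those of the peaks on which the comparisons of Fos, Fosb, Jun, Junb and Klf6 turn. They were read from the GENCODE transcripts of GRCm38, 5′ to 3′. Capitals mark DRACH, the motif in which m6A is mostly deposited (A, G or T first, then A or G, then the methylated A, then C, then any base but G). Peaks in the coding sequence are shown whole. From peaks in a UTR, or across its end, 1 motif is shown with 10 bases on each side.
Fos, last exon, chr12:85476065-85476309, plus strand: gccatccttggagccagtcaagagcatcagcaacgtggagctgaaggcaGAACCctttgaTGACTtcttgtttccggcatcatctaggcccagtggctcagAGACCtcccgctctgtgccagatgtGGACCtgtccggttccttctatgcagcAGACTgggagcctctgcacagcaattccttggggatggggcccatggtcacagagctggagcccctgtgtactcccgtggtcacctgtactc
Fos, 3′UTR, chr12:85476602-85476626, plus strand: tgggcctcaaGGACTtgcaagcatc
Fosb, 5′UTR, chr7:19309503-19309527, minus strand: ggtctactccGGACTcgcatctcat
Jun, coding start, chr4:95051267-95051291, minus strand: gtgaagtgacGGACCgttctatgac
Jun, 3′UTR, chr4:95049168-95049192, minus strand: ctcaaagcagGGACCcatggaagtt
Junb, single exon, chr8:84978217-84978410, minus strand: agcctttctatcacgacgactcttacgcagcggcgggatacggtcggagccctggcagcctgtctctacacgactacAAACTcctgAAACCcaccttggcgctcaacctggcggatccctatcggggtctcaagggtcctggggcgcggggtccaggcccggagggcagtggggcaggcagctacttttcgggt
Klf6, exon 2 of 4, chr13:5864797-5864925, plus strand: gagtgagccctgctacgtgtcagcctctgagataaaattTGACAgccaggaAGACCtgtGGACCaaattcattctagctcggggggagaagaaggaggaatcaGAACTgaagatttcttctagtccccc

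The directions were as follows. Fos, Fosb and Egr1 held LPS-up and Mel+LPS-down peaks. Myc and Klf6 held LPS-up and Mel+LPS-up peaks. Jun held an LPS-down and a Mel+LPS-up peak. Junb and Fosl2 held a Mel+LPS-up peak, and Atf3 an LPS-down peak. Both comparisons use the same LPS libraries, so opposite calls at a site are not independent of each other, and the values are given side by side without a test.

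In LPS vs Veh, 5 of the 10 genes held an LPS-up peak, beside 20.1% of the 21887 protein-coding genes of the RefSeq annotation. Many of those genes have no peak in the 4 tables. Of the 9260 that do have one, 47.6% held an LPS-up peak, beside 5 of the 9 members. LPS-down peaks lay in 2 of the 6 members on chromosomes 1 to 9, beside 22.0% of the 11966 genes there and 49.2% of the 5348 with a peak in some table. In Mel+LPS vs LPS, 5 of the 10 genes held an up peak, beside 25.6% of all genes and 60.6% of those with a peak in any table. Down peaks were held by 3 of the 10, beside 15.3% and 36.2%. The members' shares were above those of all genes in the 4 tables. Among genes with any peak, the members' share was higher for LPS-up peaks only, at 55.6%. It was lower in the other tables, at 40.0%, 55.6% and 33.3%.

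**Figure D1:**
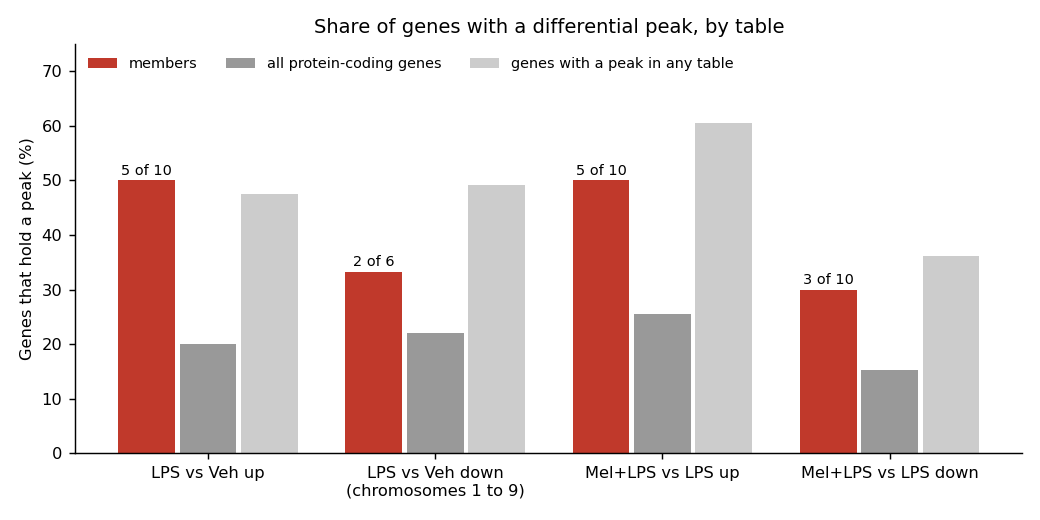
The bars give, for each of the 4 tables, the percent of genes that hold a differential peak among the members (red, the 10 genes or, for LPS down, the 6 on chromosomes 1 to 9), among all protein-coding genes (dark gray) and among genes with a peak in any table (light gray). The members stand above all protein-coding genes in each table (5 of 10 against 20.1% for LPS up) and above the genes with any peak for LPS up only.

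Fos, which encodes the AP-1 partner that is almost silent at rest, was the member with the highest score in Mel+LPS vs LPS. Its last exon held an LPS-up peak at chr12:85476065-85476231 with a log10 likelihood ratio of 1.42. In Mel+LPS vs LPS, a down peak began at the same base and ran to 85476309, with a log10 likelihood ratio of 4.54. The whole LPS-up peak, 167 bases, was within it. The site is the first Fos sequence above, in the coding sequence, and both peaks hold the same 5 DRACH motifs. A further Fos peak, at chr12:85476555-85476790, was listed as Mel+LPS down only, with a log10 likelihood ratio of 4.42, and its centre lay 217 bases past the stop codon in the 3′UTR. It held 9 DRACH motifs in 236 bases. The scores differed in rank: the LPS-up peak was higher than 14.2% of all LPS-up peaks in a gene, and the Mel+LPS-down peaks were higher than 76.8% and 75.8% of those of their table.

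Fosb encodes a FOS family protein known for its long-lived splice form. It held the member peak with the highest score of all, an LPS-up peak at chr7:19309488-19309660 with a log10 likelihood ratio of 5.29. That score was above 81.25% of LPS-up peaks in a gene. The Mel+LPS-down peak of Fosb, at chr7:19309488-19309612, had a log10 likelihood ratio of 3.65 and lay wholly inside it (125 bases). Both lay in the 5′UTR, with centres 143 and 119 bases before the coding start. Fosb carried further peaks that the rule leaves out, because they were assigned to Gm26802, a neighboring gene that does not overlap Fosb in GENCODE. They lay on Fosb exon sequence around the Fosb stop codon, LPS up at chr7:19304732-19304892 (2.36) and Mel+LPS down at chr7:19304545-19304901 (4.53), with 10 and 17 DRACH motifs. Fosl2, the longest member transcript with 6537 bases, encodes the FOS family protein FRA2. It held 1 peak, Mel+LPS up at chr5:32153357-32153546, in the 3′UTR with a log10 likelihood ratio of 1.19, above only 3.96% of the peaks of its table in a gene.

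**Figure D2:**
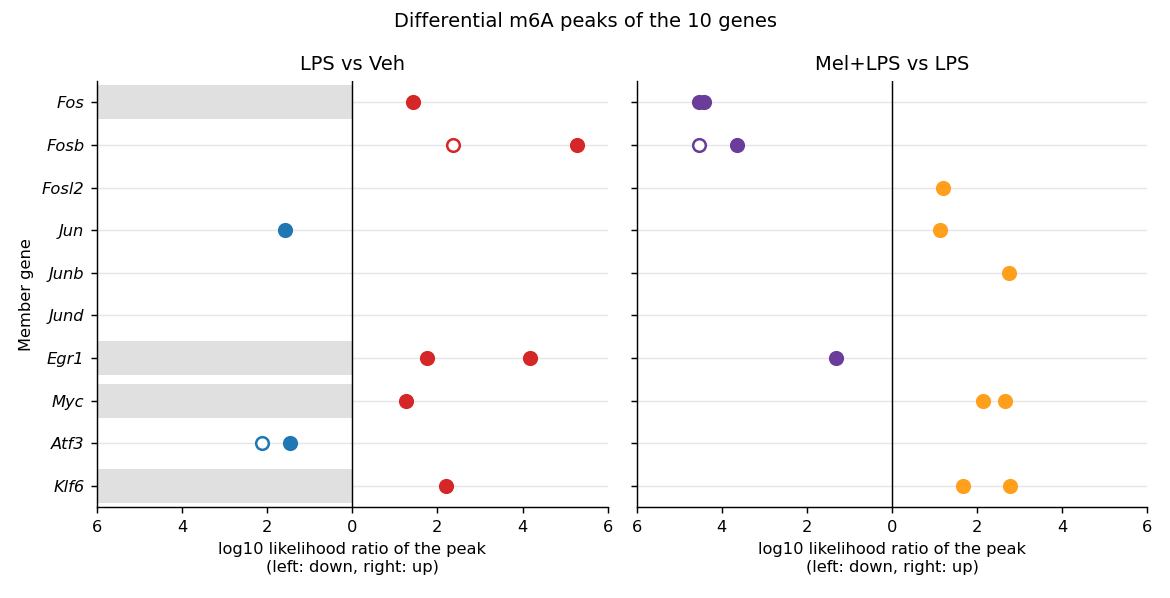
Each point is a differential peak of a member gene, with its log10 likelihood ratio to the right for up and to the left for down, in LPS vs Veh (left panel) and Mel+LPS vs LPS (right panel). Open points are peaks on a member's exon that were assigned to another gene, and gray bands mark genes whose LPS-down peaks were not analysed. Fos, Fosb and Egr1 stand to the right in LPS vs Veh and to the left in Mel+LPS vs LPS, with Fosb the highest at 5.29.

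The JUN family genes have no introns, and JUN proteins are the AP-1 subunits that bind DNA with FOS partners or with each other. Jun held an LPS-down peak in its 3′UTR at chr4:95049178-95049313, with a log10 likelihood ratio of 1.58. Its Mel+LPS-up peak was at chr4:95051195-95051318, with a log10 likelihood ratio of 1.14. That score was above 2.03% of the Mel+LPS-up peaks in a gene. The directions were opposite in the 2 comparisons, but the sites were not the same: 1881 bases lay between the peaks. One lay 1025 bases past the stop codon and the other at the coding start, where the atg of Jun stands near the end of the sequence shown above. Junb, whose product often restrains JUN, held a Mel+LPS-up peak at chr8:84978217-84978410 with a log10 likelihood ratio of 2.74. Its 194 bases of coding sequence carried 2 DRACH motifs, AAACT and AAACC, and no GGAC. Jund, the JUN gene with the steadiest expression in most cells, held no peak within the gene in any table. A peak at chr8:70695760-70695873 was assigned to it as a promoter peak, 1866 bases before its start. That peak was listed as LPS up with a log10 likelihood ratio of 3.21 and as Mel+LPS down with 2.66, at identical positions.

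Atf3 encodes a stress-induced member of the ATF family that limits inflammatory gene expression downstream of Toll-like receptors. Its peak by the rule was LPS down, at chr1:191172190-191172388, with a log10 likelihood ratio of 1.46. The annotation names exon 3 of 4 of Atf3 there, but the peak was assigned to the neighboring gene Fam71a and only 14 of its 199 bases lay on the Atf3 exon, with no DRACH motif. A further LPS-down peak on the Atf3 3′UTR, at chr1:191170507-191170730 (2.13), was also assigned to Fam71a. Fam71a does not overlap Atf3 in GENCODE.

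Myc encodes the growth regulator that drives ribosome and metabolic genes. It was the member with overlapping peaks of the same direction in both comparisons. The LPS-up peak, chr15:61987868-61988092, had a log10 likelihood ratio of 1.26, and the Mel+LPS-up peak, chr15:61987786-61988037, had 2.14. They shared 170 bases of exon 2 of 3, which is 75.6% of the shorter peak. A second Mel+LPS-up peak (2.66) lay at chr15:61985847-61985985, with its centre 6 bases before the coding start. Klf6 encodes a zinc finger factor induced by injury and inflammation. Its LPS-up peak, chr13:5864797-5864925, had a log10 likelihood ratio of 2.20. A Mel+LPS-up peak of the same exon, chr13:5864976-5865328, had 1.66 and began 50 bases further on. In the Klf6 3′UTR, a Mel+LPS-up peak at chr13:5868722-5868956 had 2.78, the highest score of any member in that table. Myc and Klf6 thus held peaks called higher in LPS than in Veh and peaks called higher in Mel+LPS than in LPS. Mel+LPS was not compared with Veh here.

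**Figure D3:**
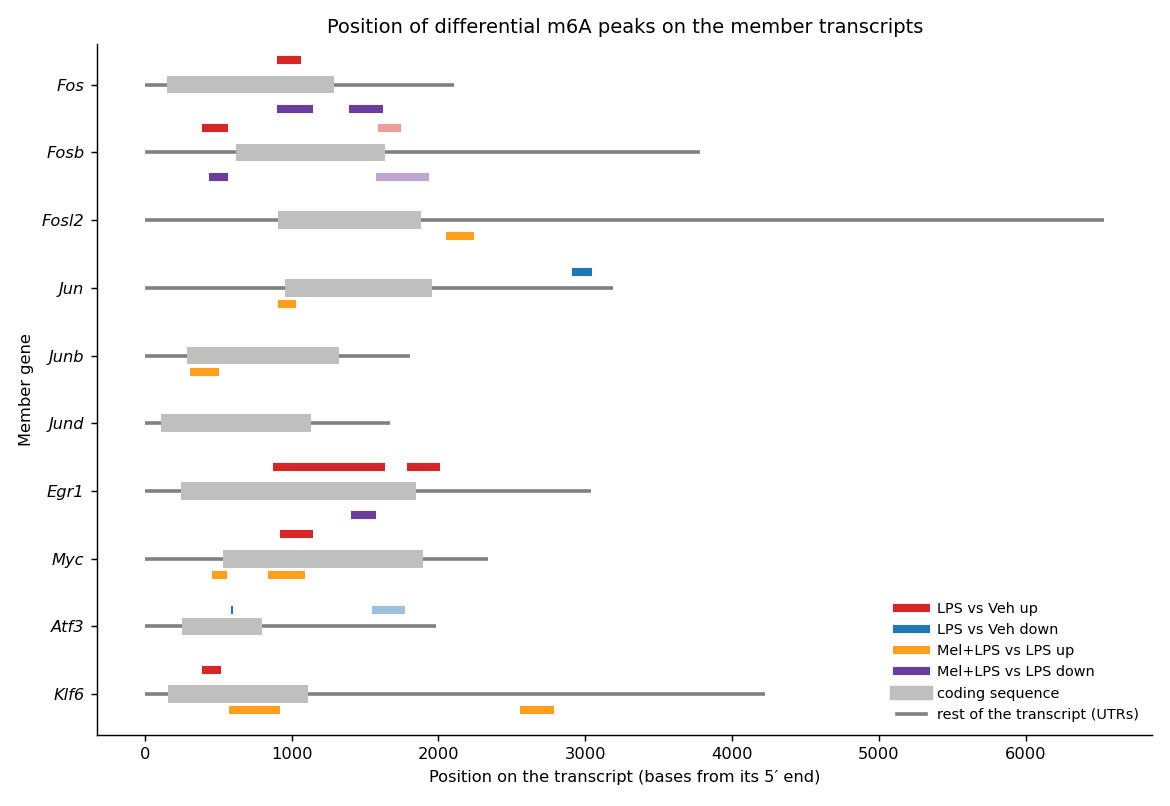
Each line is the reference transcript of a member, in bases from its 5′ end, with the coding sequence as a gray box. Colored bars are differential peaks, LPS vs Veh above the line and Mel+LPS vs LPS below it, and pale bars are peaks assigned to another gene. The bars of Fos and Fosb stand at the same place above and below the line, those of Myc overlap with the same direction, and those of Jun lie far into the 3′UTR and at the coding start.

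Egr1 encodes a zinc finger factor that responds to growth factors, estrogen and inflammation, and is needed in the uterus for a normal response to implantation. It held the broadest member peak, an LPS-up peak of 762 bases at chr18:34862795-34863556 with a log10 likelihood ratio of 4.18. That score was above 74.8% of LPS-up peaks in a gene, and the peak covered 14 DRACH motifs of the coding sequence. A Mel+LPS-down peak of 174 bases, chr18:34863324-34863497, lay wholly inside it with a log10 likelihood ratio of 1.32, above 11.2% of the peaks of its table in a gene. A second LPS-up peak (1.76) lay at chr18:34863705-34863932, with its centre 53 bases past the stop codon. Egr1 and Fos thus had the same directions, with the higher score in different comparisons. The peaks differ in width and the depth is unknown, so the scores do not rank the strength of the changes. The higher score was in LPS vs Veh for Egr1 (4.18 against 1.32) and in Mel+LPS vs LPS for Fos (1.42 against 4.54).

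The member scores were compared with those of all peaks in a gene of the same table. In LPS up, the member median was 1.98 over 6 peaks (range 1.26 to 5.29), beside 2.76 over 8050 peaks. Fosb and Egr1 each had 1 peak above the median of the table. In LPS down, Jun and Atf3 had a median of 1.52, beside 2.57 over 4389 peaks. In Mel+LPS up, the member median was 2.14 over 7 peaks (1.14 to 2.78), beside 2.18 over 10459 peaks. In Mel+LPS down, it was 4.03 over 4 peaks (1.32 to 4.54), beside 3.09 over 5675 peaks. Fos and Fosb lay above the median of that table and Egr1 below it. A log10 likelihood ratio of at least 3 was reached by 2 of the 6 LPS-up, none of the 2 LPS-down, none of the 7 Mel+LPS-up and 3 of the 4 Mel+LPS-down member peaks. Among all peaks in a gene, 47.2%, 44.5%, 32.8% and 50.8% reached it.

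**Figure D4:**
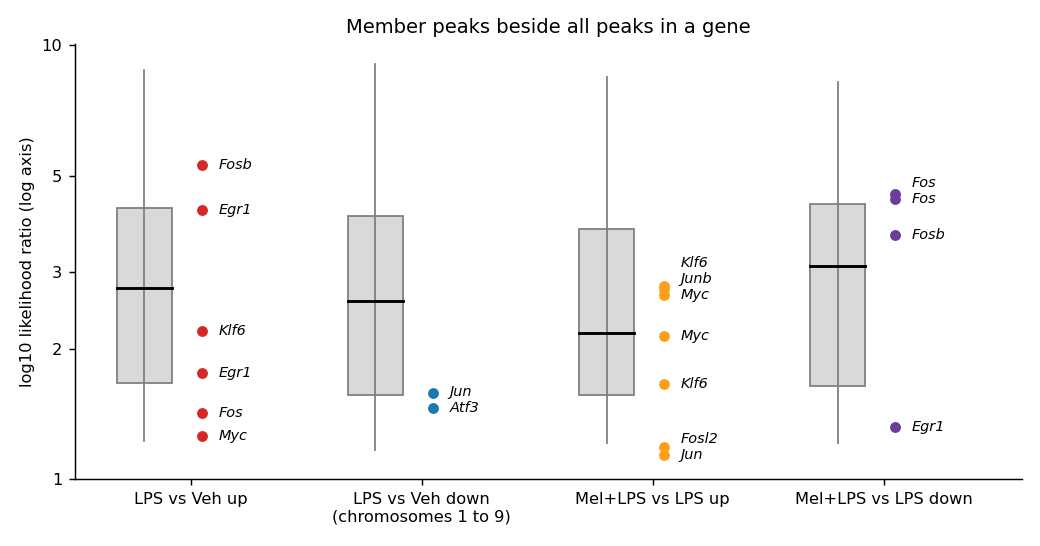
For each table, the box spans the quartiles of the log10 likelihood ratio (log axis) of all peaks in a gene, the thick line is the median and the thin line runs from the 5th to the 95th percentile. The colored points are the member peaks with their gene. Only Fosb, at 5.29 in LPS up, and the Fos peaks of Mel+LPS down (4.54 and 4.42) lie above their boxes.

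The place of the member peaks along their genes was set beside that of all peaks, without a test. By the annotated class, 4 of the 19 lay in the 5′UTR (21.1%, Wilson 95% interval 8.51% to 43.3%), 5 in the 3′UTR (26.3%, 11.8% to 48.8%) and 10 in other exon sequence (52.6%, 31.7% to 72.7%). The Jun peak is annotated as 5′UTR but its centre lies in the coding sequence of the reference transcript, and by such centres the 5′UTR share was 15.8%. Of all 28573 peaks in a gene, 5.3%, 12.8% and 56.6% were in these classes. No member peak was annotated to an intron (0 of 19, up to 16.8%), against 24.6% of all. The Atf3 peak is annotated as exon, but its centre lies off the exons of the reference transcript, with 14 of its 199 bases on one. These intervals cover counting error only, and peaks of 1 gene, or of the same site in 2 tables, are not independent. The median exon number of the members with a peak was 4, beside 10 for 9015 protein-coding genes with a peak in any table and a reference transcript. The median transcript lengths were 3036 and 3364 bases. Members with a peak held a median of 2 peaks, as did all genes with a peak, and at most 3. Of the 9 genes, 3 had peaks in 1 table and 6 in 2 tables, beside 47.6% and 35.3% of all genes with a peak. None had peaks in 3 or 4 tables, beside 13.8% and 3.33%, but 4 of the 9 could reach at most 3 because their LPS-down peaks were not analysed.

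**Figure D5:**
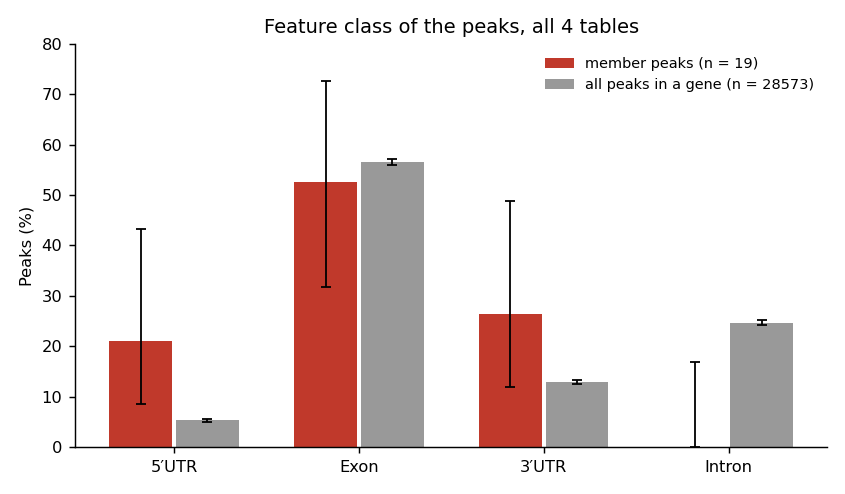
The bars give the percent of peaks in each feature class for the 19 member peaks (red) and the 28573 peaks in a gene (gray), all tables joined, with Wilson 95% intervals. By the annotated class, the 5′UTR share is 21.1% for members and 5.3% for all, and no member peak is in an intron.

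DRACH motifs were counted on the strand of the transcript. The member peaks held 94 motifs in 4067 exon bases, or 23.1 per 1000 bases, beside 19.7 in the rest of the same transcripts. Each peak was counted by itself, so bases and motifs shared by overlapping peaks were counted for each. The rest of a transcript was taken per peak and includes its other peaks. Among all 15097 peaks centred on an exon of a reference transcript, the density was 24.8 per 1000 bases, beside 20.9 in the rest of the transcripts. The ratio of peaks to the rest was 1.17 for members and 1.18 for all peaks. A motif was present in 18 of the 19 member peaks and in 97.5% of all, and the exception was the Atf3 peak. With the member peaks shifted upstream by 100 bases, the density was 24.7 per 1000 bases, no lower than in the peaks themselves. The narrower motif GGAC was in 84.2% of member peaks and 60.1% of all, but its density was 5.66 per 1000 bases in member peaks and 5.53 in all. By table, the density in member peaks was 23.2 per 1000 bases in LPS up, 13.3 in LPS down, 20.7 in Mel+LPS up and 29.5 in Mel+LPS down. Fos and Fosb account for most bases of the last group. A motif match is a description and does not show that the base is methylated.

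Genes related to the members by function were counted by the same rule. Their lists were chosen with earlier results of these data known. The lists held 18 other immediate early transcription factors, 18 other early response genes, among them dual-specificity phosphatases and Zfp36 family mRNA decay factors that damp the response and effector genes such as Arc and Ccn1, and 29 upstream kinases and their nuclear targets. Of the other immediate early factors, 4 of 18 held an LPS-up peak (22.2%), 7 of the 10 on chromosomes 1 to 9 an LPS-down peak (70.0%), and 5 of 18 (27.8%) a peak in each Mel+LPS table. All genes had 20.1%, 22.0%, 25.6% and 15.3% in LPS up, LPS down, Mel+LPS up and Mel+LPS down. All genes with a peak in any table had 47.6%, 49.2%, 60.6% and 36.2%. Of the 18 factors, 13 had a peak in some table. Thus 4 of these 13 held an LPS-up peak, and 5 of the 13 a peak in each Mel+LPS table. How many of the 10 on chromosomes 1 to 9 had any peak is not given here. The highest scores of this list were an intron peak of Batf, an AP-1 partner of immune cells, in LPS up (10.98), and the growth arrest factor gene Csrnp1, listed as LPS down (5.08) and as Mel+LPS up (4.28). In Mel+LPS down, it was Nr4a1 (2.53), which encodes an orphan nuclear receptor. Its peak was also LPS up (3.40), as were peaks of its relatives Nr4a2 (3.47) and Nr4a3 (7.94), whose sites were Mel+LPS down with 1.48 and 1.68. Nr4a3 also had an LPS-down peak at another site (4.13). Nr4a2 and Nr4a3 were chosen after their values were seen.

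These other early response genes held LPS-up peaks in 5 of 18 (27.8%), LPS-down peaks in 1 of 6 (16.7%) and peaks of each Mel+LPS table in 5 of 18 (27.8%), beside 20.1%, 22.0%, 25.6% and 15.3% of all genes. Of the 18, 12 had a peak in some table. LPS up, Mel+LPS up and Mel+LPS down each held 5 of these 12, beside 47.6%, 60.6% and 36.2% of all genes with any peak. The highest scores were those of Arc, a cytoskeletal gene, in LPS up (3.26) and Mel+LPS down (1.72), the matricellular gene Ccn1 in LPS down (3.46) and the ERK phosphatase gene Dusp4 in Mel+LPS up (7.29). Upstream of the members stand the kinases and their nuclear targets. Of these 29 genes, 18 held a Mel+LPS-up peak (62.1%), beside 25.6% of all genes, and 3 a Mel+LPS-down peak (10.3%), beside 15.3%. Of the list, 20 genes had a peak in some table, beside 9260 of the 21887 protein-coding genes. Thus 18 of these 20 held a Mel+LPS-up peak, beside 60.6% of all genes with a peak in any table. The list was chosen with earlier results of these data known, so its shares and scores are a description only. A Mel+LPS-down peak was in 3 of the 20 (beside 36.2%) and an LPS-up peak in 4 of the 20 (beside 47.6%). LPS-up peaks were in 4 of 29 (13.8%, beside 20.1%) and LPS-down peaks in 4 of the 11 on chromosomes 1 to 9 (36.4%, beside 22.0%). Among all genes there with a peak in some table, 49.2% held an LPS-down peak. Of the 11, Creb1, Elk4, Mef2d and Rps6ka1 had a peak in some table but no LPS-down peak. The kinase gene Map2k4, which acts upstream of JUN kinases, had the highest Mel+LPS-up score (13.35). The other leading genes were Mrtfb (2.64), a coactivator of serum response factor, in LPS up, Atf2 (6.30), a JUN partner, in LPS down, and the ETS factor gene Elk4 (4.44) in Mel+LPS down. The Elk4 3′UTR also held a Mel+LPS-up peak at another site, with a higher score (8.5). The median score of the Mel+LPS-up peaks of this list was 4.02 over 22 peaks, beside 2.18 over all peaks of the table in a gene.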

How the data were processed

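Uterine m6A-seq was analysed from the authors' 4 deposited tables of differential peaks. RNA had been fragmented to about 100 nt before immunoprecipitation. According to the methods and the submitters' processing notes, reads were trimmed with Fastp and aligned with STAR (2.5.2a) to mm10, peaks were called with exomePeak2, compared between treatments with MACS2 (version given as 3.4), and annotated with ChIPseeker (1.22.1). HOMER (4.10) motifs were not used. The score deposited by the authors for each peak was read as the MACS2 log10 likelihood ratio of a difference, from the peak names and values, since the tables do not name it. How replicates and input entered it, and the depth, are not given in the sources used here. The LPS-down table ends within chromosome 10 and was used on chromosomes 1 to 9 (6259 of 6414 peaks).

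Here, each peak was assigned to genes by its annotation, and member peaks were counted beside 21887 RefSeq protein-coding genes. Positions and DRACH motifs came from 1 GENCODE transcript per gene (release 21, GRCm38). The tables used hold no values per replicate, so nothing was tested. The members and gene lists were chosen with earlier results of these data known. All 10 members were named, and from each related list the gene with the highest score per table. Nr4a2, Nr4a3, Creb1, Mef2d, Rps6ka1, Esr1, Hoxa10 and Hoxa11 are named outside this rule. The placement step recovered 2000 of 2000 made positions. The motif step counted the planted motifs in 200 of 200 made sequences, but only GGACT was planted, among G and T, so other forms of DRACH were not checked. Alternatives were other assignment rules, a stricter score, merged peaks, other overlaps and other motifs. Python 3.11.15, numpy 2.4.6, pandas 2.3.3, scipy 1.17.1 and matplotlib 3.10.9 were used.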

Additional observations from a re-analysis of the deposited data

How the results depend on the processing

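Of 44 alternative values for 17 results, 35 stayed within the spread set for them, whose size is not given here, and 9 moved. The results are counts, medians, shares and a density, which have no sign, so none could change direction. At a log10 likelihood ratio of at least 3, member peaks fell to 2 in LPS up (in 2 genes), to 0 in LPS down (in 0 genes) and to 0 in Mel+LPS up (in 0 genes), while Mel+LPS down kept 3 of 4 peaks, in 2 genes. By the assigned gene alone, LPS down held 1 member peak in 1 gene, since the Atf3 peak was assigned to Fam71a. By the same rule, LPS up held 7 member peaks in 6 genes and Mel+LPS down 5 in 4 genes, since the promoter peak assigned to Jund then counted. Counted as GGAC, the motif density in member peaks was 5.66 per 1000 bases, a narrower motif being rarer by construction. With a peak centre on a member exon as the rule, the 4 tables held 7, 2, 7 and 5 member peaks. With peak centres at most 200 bases apart, 2 of the 3 opposite sites remained, those of Fos and Fosb. No paired analysis was possible because the tables hold 1 score per peak and comparison, with no value per replicate. For the same reason no replicate could be left out.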
